A study of Caenorhabditis elegans with 2 samples.

Results

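Transfer RNA (tRNA) genes were examined for binding of a tagged C06A6.2 protein in Caenorhabditis elegans. All 612 nuclear genes that the Ensembl annotation of WBcel235 gives the biotype tRNA were taken, of 46890 nuclear genes in all, and no measured value entered their choice. Of these genes 276 lay on X and 336 on the autosomes, with 66 on I, 57 on II, 64 on III, 71 on IV and 78 on V. Peaks came from chromatin immunoprecipitation followed by sequencing (ChIP-seq) of 2 samples, biological replicates 1 and 2 of a single group per the labels. Per the labels, both were whole young adults of 67 h, grown from L1 larvae that had been synchronised by starvation after bleaching. The worms, strain OP810, carried the transgene wgIs810, which holds C06A6.2 with a TY1, EGFP and 3xFLAG tag together with unc-119(+), in the unc-119(tm4063) background. DNA bound by the fusion protein was recovered with an antibody to GFP, so the lists describe the transgenic protein and not the untagged one. Whole animals were used, so binding in different tissues is mixed, and no untagged strain or input library was analysed here.

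A gene was said to have a peak when the summit of a peak in the conservative joint list lay within 500 bp of its 5′ end. That list combines both replicates and passed the authors' threshold on the IDR, the irreproducible discovery rate, which is low where the replicates rank a peak alike. It held 1346 peaks. Each peak carries the authors' own signal value, which is higher for stronger enrichment and has no stated scale. It was used to describe and rank peaks within a list, and levels in different lists are not on 1 scale. The number of reads was not in these files, so the depth of the libraries is unknown. Intervals given with shares are 95% Wilson intervals. They cover counting error over genes only and treat each gene as separate, although neighbouring genes can share a peak.

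tRNA genes are short genes transcribed by RNA polymerase III, and their promoter lies inside the gene. The A box and the B box within the transcribed sequence are bound by TFIIIC, which brings TFIIIB to the DNA just upstream of the start site, and TFIIIB recruits the polymerase. Transcription ends at a run of T residues just after the gene. In C. elegans, tRNA genes lie scattered over all chromosomes, many of them in introns of protein-coding genes, and many have exact copies elsewhere.

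The B box is the element that tRNA genes have in common, and 3 genes near strong peaks are shown with its core in capitals, each read 5′ to 3′ on the gene's own strand. W09D6.t2 is a tRNA-Pro gene on the minus strand at chrIII:11066848-11066919. C02B4.t2, a tRNA-Tyr gene on the plus strand at chrX:12665228-12665311, and C33G3.t2, a tRNA-Lys gene on the minus strand at chrX:14063946-14064018, follow it. Bases and coordinates are those of ce11 (WBcel235), from RefSeq's copy of that assembly.
W09D6.t2: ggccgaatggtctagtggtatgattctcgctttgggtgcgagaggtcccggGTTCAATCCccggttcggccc
C02B4.t2: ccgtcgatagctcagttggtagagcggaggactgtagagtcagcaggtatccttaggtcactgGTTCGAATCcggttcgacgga
C33G3.t2: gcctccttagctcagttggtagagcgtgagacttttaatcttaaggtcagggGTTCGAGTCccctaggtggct

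The core was searched on the gene's strand as GTTCGANNC or GTTCAANNC, 2 patterns that cannot overlap at the same position. The second pattern was added after the tRNA-Pro sequence had been seen. Either pattern was present in 101 of 104 tRNA genes with a peak (97.1%, 91.9 to 99%) and in 486 of 508 without one (95.7%, 93.5 to 97.1%). Among other nuclear genes, the first 72 bases held one in 1.19%. GTTCGANNC alone was in 76 of 104 genes with a peak (73.1%) and 365 of 508 without (71.9%), against 0.624% of other genes. A run of TTTT on the gene's strand in the 40 bases after the gene was found in 103 of 104 genes with a peak (99%) and 502 of 508 without (98.8%), and in 53.6% of other genes. For each of these elements the intervals of genes with and without a peak overlapped.

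A conservative peak was found at 104 of the 612 tRNA genes (17%, 14.2 to 20.2%), from 101 summits, which is 7.5% of all conservative summits. Some of these 101 peaks overlap each other, and together they form 89 distinct intervals. Over all nuclear genes the share with a peak was 2.55%. Among protein-coding genes it was 3%. Of the 3 classes of short non-coding genes set beside the tRNA genes, 15.5% of 129 snRNA genes, 18.8% of 346 snoRNA genes and 6.13% of 261 miRNA genes had a peak. With summits counted only within 250 bp, 16.5% of tRNA genes had a peak, against 1.86% of all nuclear genes. The list of each replicate alone, also thresholded by the authors, gave smaller numbers. How the threshold was applied within 1 replicate is not known here, so it may not be the same criterion as in the joint list. Replicate 1 had a summit at 46 tRNA genes (7.52%, against 1.57% of all nuclear genes) and replicate 2 at 61 (9.97%, against 1.77%). The nearest conservative peak of the 104 genes was also set against these lists by overlap of the intervals, not by distance of the summit. It overlapped a peak in both replicates' own lists at 28 genes, in that of replicate 1 alone at 15, in that of replicate 2 alone at 21 and in neither at 40.

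The peaks at tRNA genes were of middling strength among the conservative peaks. Their median signal was 79.3 (quartiles 70.7 to 101), against 88.8 (69.8 to 126) for the other 1245 peaks. By rank of signal the highest stood at 39 and the lowest at 1339 of 1346. Only 1 of the first 100 peaks and 4 of the first 200 were within reach of a tRNA gene. In the ranked lists of the single replicates, which were not thresholded, the overlapping peaks had a median signal of 39.6 (32.6 to 52.4) in replicate 1 and 45.2 (38.6 to 55.9) in replicate 2. The ratio of replicate 2 to replicate 1 had a median of 1.1 for these peaks and 1.14 for the other conservative peaks. The peaks were narrow and mostly of the caller's common width: 97 of 101 were 320 bp wide, against 1032 of the other 1245.

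**Figure D1:**
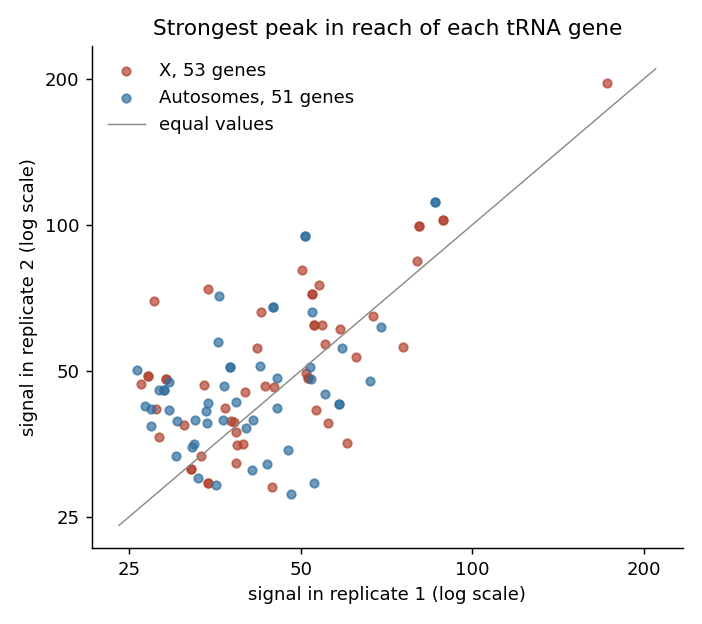
Signal of the strongest conservative peak within 500 bp of each tRNA gene, in the ranked list of replicate 1 (x axis, log scale) and replicate 2 (y axis, log scale, no unit given by the authors). Each point is 1 of 53 genes on X or 51 on the autosomes, genes that share a peak coincide, and the line marks equal values. The point at 172 and 196 is C18A11.t2.

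The strongest summit in reach of a tRNA gene was that of C18A11.t2 (WBGene00022939), a tRNA-Arg gene on the minus strand at chrX:8036685-8036757. It had a signal of 379 in the conservative list, and of 172 in replicate 1 and 196 in replicate 2. This summit lay 356 bp downstream of the gene's 5′ end, beyond the gene's other end. A second summit, 153 bp downstream of the 5′ end, belonged to an overlapping peak with a signal of 80.1. The strongest peak is therefore in reach of the gene and not on it.

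The next strongest was a single peak between the head-to-head tRNA-Pro genes W09D6.t2 (WBGene00014553) and W09D6.t1 (WBGene00014552), at chrIII:11066848-11067098 in an intron of rsa-2. Its signal was 202, with 86 in replicate 1 and 112 in replicate 2, rank 133 in the conservative list. The 2 genes have the same sequence and are 107 bases apart. The plus strand of the whole stretch is shown to place the summit, with both genes in capitals. The summit is base 89, 17 bp upstream of the first gene and 91 bp upstream of the second.
W09D6.t2 and W09D6.t1: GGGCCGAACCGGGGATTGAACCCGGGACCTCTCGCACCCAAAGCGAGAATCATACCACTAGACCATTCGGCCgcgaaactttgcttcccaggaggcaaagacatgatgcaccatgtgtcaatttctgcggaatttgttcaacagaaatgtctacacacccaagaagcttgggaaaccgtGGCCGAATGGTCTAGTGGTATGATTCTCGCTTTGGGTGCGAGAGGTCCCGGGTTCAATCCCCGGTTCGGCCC

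The next loci were on X. M02F4.t2 and M02F4.t1, a head-to-head pair for tRNA-Glu and tRNA-Gly, shared a summit with a signal of 188, and of 88.8 in replicate 1 and 102 in replicate 2. It lay 90 bp upstream of M02F4.t2 and 27 bp upstream of M02F4.t1. F15G9.t1 and F15G9.t2, tRNA-Ala genes that run in tandem within an intron of him-4, shared a summit with a signal of 184, and of 80.8 in replicate 1 and 99.6 in replicate 2. That summit was inside F15G9.t1, 52 bp from its 5′ end, and 106 bp upstream of F15G9.t2. C02B4.t2, in an intron of nhr-17, had a summit 9 bp inside the gene with a signal of 163, and of 80 in replicate 1 and 84.3 in replicate 2. All 3 loci were in both replicates' own thresholded lists.

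On the autosomes the strongest peaks after the W09D6 pair were on V. T23F1.t1, a tRNA-Lys gene, had a summit 43 bp inside the gene with a signal of 148, and of 50.9 in replicate 1 and 94.7 in replicate 2. The same summit was 167 bp from the 5′ end of T23F1.t2, a tRNA-Pro gene in tail-to-tail orientation. T23F1.t2 also had a nearer summit 33 bp upstream, whose signal in the conservative list was only 5.4. T03E6.t1, a tRNA-Gln gene, had a summit 98 bp upstream with a signal of 130, and of 69.1 in replicate 1 and 61.6 in replicate 2.

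The other 8 of the 15 strongest summits had signals from 117 at the F49D11 pair to 145.5 at R04A9.t1. They lay at R04A9.t1 (Gln), C33G3.t2 (Lys), F41D9.t3 (Asn), R11.t1 (Tyr) and the Ser pair C53C7.t2 and C53C7.t1 on X, and at F56F3.t1 (Arg) on III, F57F5.t1 (Ile) on V and the Gly pair F49D11.t2 and F49D11.t1 on I. The listed signal was higher in replicate 1 at 4 of these 8 summits, those of C33G3.t2, R11.t1, F56F3.t1 and F57F5.t1. It was higher in replicate 2 at the other 4. The scaling of the 2 ranked lists may differ, so this order cannot be read as a difference in enrichment.

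Summits sat close to the start of the gene. The nearest conservative summit was a median of 34 bp from the 5′ end (quartiles 16 to 56.2 bp, 104 genes), and it lay within 100 bp at 93 genes and within 250 bp at 101. It was inside the gene at 56 genes (53.8%, 44.3 to 63.1%), upstream at 42 (40.4%, 31.5 to 50%) and beyond the 3′ end at 6 (5.77%, 2.67 to 12%). The median position was 9.5 bp downstream of the 5′ end. In the single replicates' own lists it was 3.5 bp downstream in replicate 1 (46 genes) and, with upstream written as negative, -11 bp in replicate 2 (61 genes), where 54.1% of the genes had the summit upstream. The peak interval took in the whole gene at 89 of the 104, which follows largely from the common peak width of 320 bp and the median gene length of 72 bp. For comparison, the median distance was 43 bp at 65 snoRNA genes, 31 bp at 20 snRNA genes, 262 bp at 16 miRNA genes and 197 bp at 600 protein-coding genes. In the conservative list the median position was -31 bp for snoRNA genes, -19 bp for snRNA genes, -235 bp for miRNA genes and -184 bp for protein-coding genes.

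**Figure D2:**
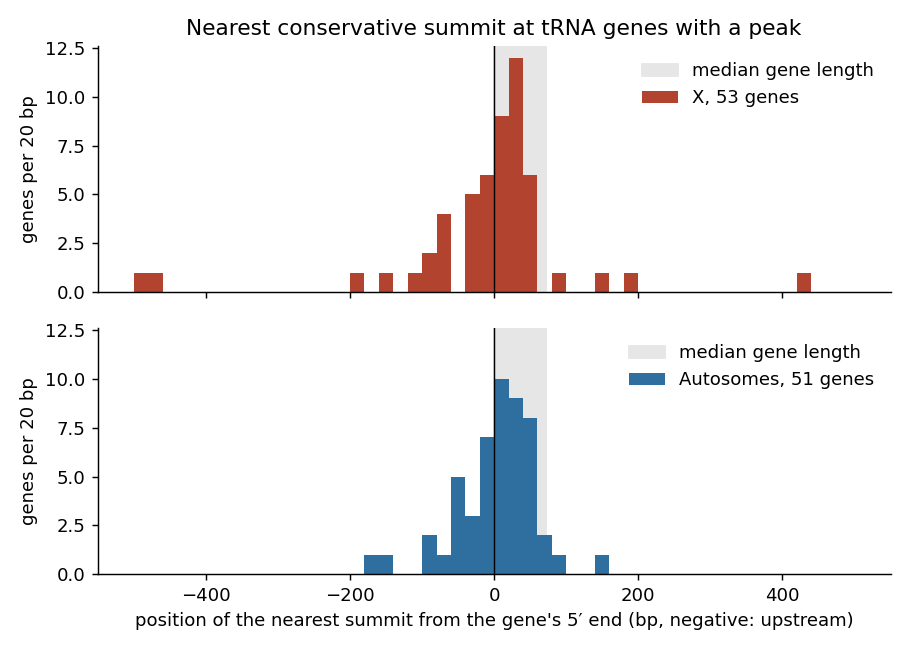
Number of tRNA genes (y axis, per 20 bp) by the position of the nearest conservative summit relative to the gene's 5′ end (x axis, bp, negative values upstream), for 53 genes on X (top) and 51 on the autosomes (bottom). Grey marks the median gene length of 72 bp, and both distributions centre near the 5′ end.

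The window of 500 bp had little effect at its edge. Just inside it were C16B8.t2 with a summit 483 bp upstream, F11A1.t1 with one 473 bp upstream and K02A4.t2 with one 432 bp downstream, all on X. Just outside were R11.t2 at 534 bp upstream, F55F3.t2 at 559 bp upstream and Y43F4A.t1 at 625 bp downstream.

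On X, 53 of 276 tRNA genes had a conservative peak (19.2%, 15 to 24.3%), against 51 of 336 on the autosomes (15.2%, 11.7 to 19.4%). The intervals overlapped. Genes of all other biotypes had a peak in 2.66% of 5746 cases on X and 2.32% of 40532 on the autosomes. Shares differed by biotype, and the mix of biotypes on X and the autosomes was not matched. The values for other genes therefore do not show whether genes of any single biotype lean to X. For tRNA genes the single replicates had the same order as the conservative list. The shares were 9.06% on X and 6.25% on the autosomes in replicate 1, and 13.4% and 7.14% in replicate 2. In replicate 2 the interval for X, 9.88 to 17.9%, overlapped that for the autosomes, 4.85 to 10.4%. Among the single autosomes the share ran from 10.3% on V to 18.8% on III, so III was close to X. In replicate 1's own list X was below III, at 9.06% against 14.1%, and likewise in the optimal list, the authors' other thresholded joint list, at 19.6% against 20.3%. X held 276 of the 612 tRNA genes and 50 of the 101 summits at tRNA genes (49.5%). Of the other 1245 conservative summits 217 were on X (17.4%). When neighbouring genes within 2000 bp were counted as 1 locus, 44 of 183 loci on X (24%, 18.4 to 30.7%) and 45 of 271 on the autosomes (16.6%, 12.6 to 21.5%) had a peak. A locus counts when any of its genes has a peak, which favours X: 54.7% of its tRNA genes lay in a cluster, against 35.1% on the autosomes.

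**Figure D3:**
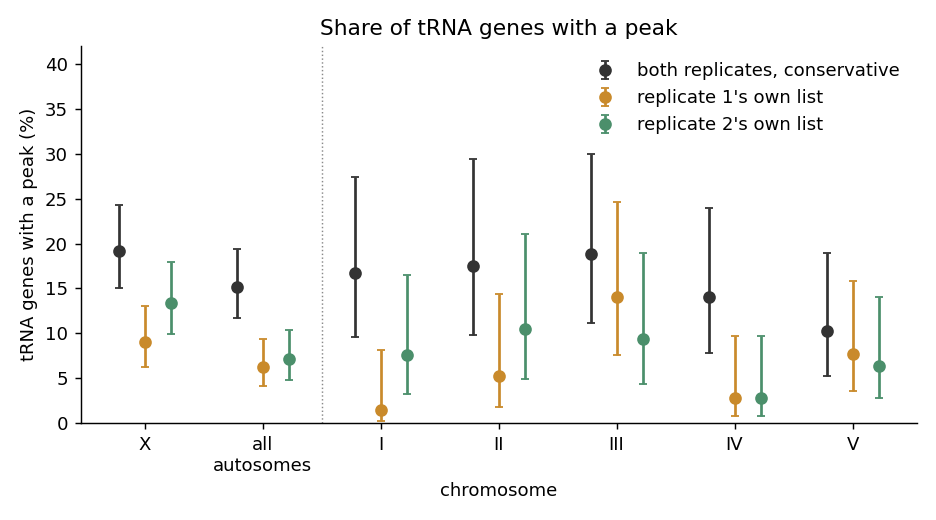
Percent of tRNA genes with a summit within 500 bp of the 5′ end (y axis) by chromosome (x axis), in the conservative list and in each replicate's own thresholded list. Points are shares and bars are 95% Wilson intervals. In the conservative list X stands at 19.2% and all autosomes together at 15.2%.

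The median distance of the summit from the 5′ end was 34 bp both on X and on the autosomes. On X the summit was inside the gene at 27 of 53 genes, upstream at 22 and downstream at 4, and on the autosomes inside at 29 of 51, upstream at 20 and downstream at 2. The median signal of the summits was 87.1 (quartiles 73 to 113) on X and 77 (67.4 to 94.7) on the autosomes. In replicate 1 it was 43 on X and 36.5 on the autosomes, and in replicate 2 it was 46.9 on X and 42.7 on the autosomes. The quartile ranges overlapped in all of these.

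The surroundings of tRNA genes differ between X and the autosomes. On X 65.2% of them lay between genes, against 42.3% on the autosomes, and 10.9% on X had a protein-coding start site within 500 bp, against 27.4% on the autosomes. Genes in an intron had a peak in 38 of 283 cases (13.4%, 9.94 to 17.9%) and genes between other genes in 64 of 322 (19.9%, 15.9 to 24.6%). Within introns the share was 13.7% on X and 13.3% on the autosomes, and between genes it was 21.7% on X and 17.6% on the autosomes. Of 122 tRNA genes with a protein-coding start site within 500 bp 22 had a peak (18%, 12.2 to 25.8%), and of 239 with none within 2000 bp 37 had one (15.5%, 11.4 to 20.6%). Of the 101 summits, 20 were also within 500 bp of a protein-coding start site. How far the placement of the genes bears on the shares for X and the autosomes was not tested.

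Counted by gene, the share with a peak was lowest in the larger clusters. Joining genes whose 5′ ends were within 2000 bp gave 454 loci, of which 343 were lone genes, 85 were pairs, 14 held 3 genes and 12 held 4 or more. On X 54.7% of the genes were in a cluster, against 35.1% on the autosomes. Lone genes had a conservative peak in 62 of 343 cases (18.1%, 14.4 to 22.5%) and genes of pairs in 36 of 170 (21.2%, 15.7 to 27.9%). In clusters of 3 or more the count was 6 of 99 (6.06%, 2.81 to 12.6%), an interval that did not overlap those of the smaller loci. On X the numbers for clusters of 3 or more were 4 of 69, and on the autosomes 2 of 30. In replicate 1's own list the shares were 3.03% in clusters of 3 or more (1.04 to 8.53%), 10% in pairs (6.34 to 15.4%) and 7.58% of lone genes (5.23 to 10.9%). In that of replicate 2 they were 2.02% (0.556 to 7.07%), 17.6% (12.7 to 24.1%) and 8.45% (5.95 to 11.9%) in the same order. The interval for the larger clusters overlapped that for lone genes in both replicates, and that for pairs in replicate 1. Counted by cluster, 27 of 111 clusters held at least 1 gene with a peak (24.3%, 17.3 to 33.1%), against the 18.1% of lone genes. These were 22 of 85 pairs (25.9%), 3 of 14 clusters of 3 (21.4%) and 2 of 12 larger ones (16.7%), with overlapping intervals. A cluster counts when any of its genes has a peak, so its share can exceed that of lone genes by construction. Taken gene by gene, 42 of the 269 genes in clusters had a peak (15.6%, 11.8 to 20.4%).

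The ranked joint list, to which no threshold was applied, did not have that order. A summit of that list lay within 500 bp of 239 of 343 lone genes (69.7%), 133 of 170 genes in pairs (78.2%) and 80 of 99 genes in larger clusters (80.8%, 72 to 87.4%, against 64.6 to 74.3% for lone genes). Over all nuclear genes this share was 25.6%. A gene with close tRNA neighbours can also be reached by a summit that is nearer to one of them. That by itself can raise the share of genes in clusters above that of lone genes. The surroundings of lone genes were unique in a larger share than those of clustered genes: at least 90% of the 50-base words within 250 bases of the gene occurred once in the genome at 88.9% of lone genes, 62.4% of genes in pairs and 59.6% of genes in larger clusters. A close tRNA neighbour falls within these 250 bases, and where it has copies elsewhere it lowers the value by construction. Among genes above that bound, 6 of 59 in clusters of 3 or more had a peak (10.2%, 4.74 to 20.5%), 15 of 106 in pairs (14.2%) and 60 of 305 lone genes (19.7%, 15.6 to 24.5%). Those intervals overlap.

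**Figure D4:**
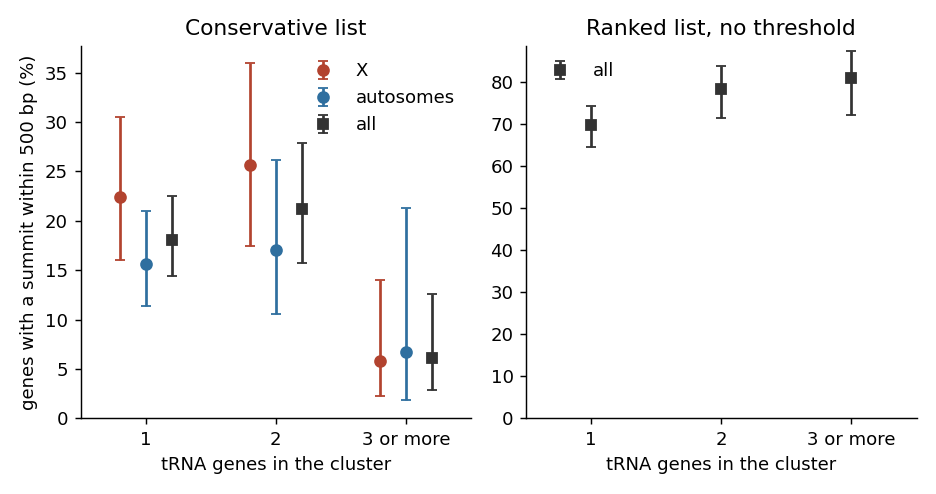
Percent of tRNA genes with a summit within 500 bp (y axis) by the number of tRNA genes in their cluster (x axis), for the conservative list (left, with X and autosomes apart) and for the ranked joint list without a threshold (right). Bars are 95% Wilson intervals. In clusters of 3 or more, 6.06% of genes had a conservative summit and 80.8% a ranked one.

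The largest clusters were on X. The F22F1 cluster of 8 genes, for Asp, Ser, Met and Ile tRNAs, had no conservative peak, and neither had the F28H6 cluster of 6 tRNA-His genes or the K01A12, R04E5 and H08J11 clusters of 5 genes each. In the F28H6 cluster as few as 8.03% of the 50-base words around a gene were unique, so reads there cannot be placed with certainty. The strongest ranked summit at the H08J11 genes, for tRNA-Gln, had a signal of 70 and rank 1103 in the ranked list. In the R11 cluster of 4 tRNA-Tyr genes only R11.t1 had a peak, with a summit 7 bp inside the gene and a signal of 130 in the conservative list. No summit of the ranked joint list was within 500 bp of the other 3 genes of R11.

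Neighbouring genes often shared 1 summit. Of the 101 summits 17 were within reach of 2 tRNA genes and none was within reach of 3 or more. There were 96 neighbouring pairs with at most 500 bp between the genes. Among the head-to-head pairs 7 of 42 had a peak, and in all 7 the summit lay between the genes, not in one. Tandem pairs had a peak in 7 of 33 cases, with a summit inside a gene in 5 and between the genes in 1. Tail-to-tail pairs had one in 3 of 21. Among lone genes with a peak the summit was inside the gene at 42 of 62 (67.7%, 55.4 to 78%) and upstream at 19. In clusters it was inside at 14 of 42 (33.3%, 21 to 48.4%) and upstream at 23. These shares are not on an equal footing. A summit in reach of 2 genes counts for both but can lie inside only 1, which by itself lowers the share inside for clustered genes. With peaks mostly 320 bp wide, a summit between neighbours that stands for 1 site and one that stands for 2 merged sites cannot be told apart.

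Exact copies of a gene differed in whether they had a peak. Of the 612 genes 469 had at least 1 exact copy, and these formed 57 groups. In 38 groups at least 1 copy had a peak, and in 37 of these other copies had none. Genes with an exact copy had a peak in 88 of 469 cases (18.8%, 15.5 to 22.5%) and genes with none in 16 of 143 (11.2%, 7.01 to 17.4%). In the 43 groups with copies on both, 40 of 185 copies on X had a peak (21.6%, 16.3 to 28.1%) and 39 of 223 on the autosomes (17.5%, 13.1 to 23%). A short read that falls wholly in a copied gene cannot be assigned to 1 copy, but the flanks can separate them. At least 90% of the surrounding 50-base words were unique at 77.9% of genes with a peak and 76.6% of genes without.

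The 5 largest groups had peaks at 30 of their copies in all. For the 29 identical tRNA-Gly genes 6 had a peak, 4 of them on X, with signals from 73 at F56C3.t1 to 188 at M02F4.t1. Of 25 tRNA-Lys genes 8 had one, 6 of them on the autosomes, from 61.2 at F15D3.t1 to 116 at M01E5.t1. Among the 24 tRNA-Pro genes 8 had one, from 64.7 at ZK899.t1 to 202 at the W09D6 pair. The 21 tRNA-Asp genes had 5, from 66.4 at C35E7.t1 to 115.2 at F38G1.t2, and the 20 tRNA-Glu genes had 3, all on X, at M02F4.t2, F02D10.t1 and C04C11.t1. By amino acid the share ran from 12 of 46 for Lys (26.1%) to 0 of 12 for Trp, whose upper bound was 24.2%.

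**Figure D5:**
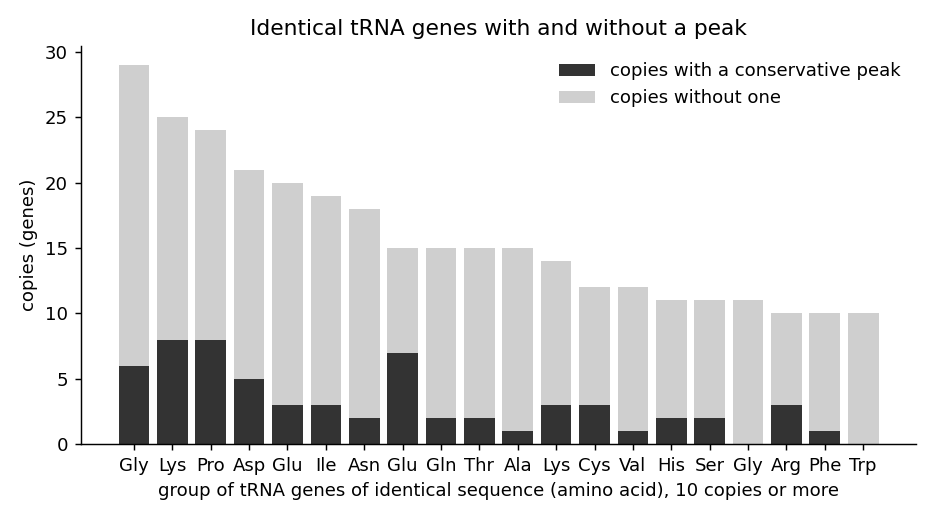
Copies with a conservative peak (dark) and without one (light) in the 20 groups of tRNA genes that have at least 10 copies of identical sequence, labelled by amino acid (x axis) with the number of genes on the y axis. In 18 of the 20 groups some copies had a peak, and in none did all copies have one.

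Since the copies are the same within the gene, their flanks were compared. For the tRNA-Pro group, the 100 bases upstream of 6 copies with a peak are shown first, and after them those of the 3 copies that had no summit even in the ranked list. Each is read 5′ to 3′ on the gene's strand in ce11, and GAGAGA or its reverse complement TCTCTC is in capitals. The W09D6 pair, shown above, had neither word.
T23F1.t2, chrV:15465297-15465396, minus strand: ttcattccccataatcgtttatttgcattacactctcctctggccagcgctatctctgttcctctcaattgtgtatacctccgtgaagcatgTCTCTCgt
F46G11.t2, chrX:5801283-5801382, minus strand: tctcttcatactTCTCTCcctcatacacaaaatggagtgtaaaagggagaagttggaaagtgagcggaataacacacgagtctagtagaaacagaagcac
F46G11.t1, chrX:5801372-5801471, plus strand: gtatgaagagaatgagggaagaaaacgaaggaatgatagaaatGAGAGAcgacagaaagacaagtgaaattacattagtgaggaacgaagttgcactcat
C16B8.t1, chrX:3969456-3969555, plus strand: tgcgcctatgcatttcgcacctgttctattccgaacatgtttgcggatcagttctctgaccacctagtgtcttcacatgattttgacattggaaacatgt
F02H6.t1, chrIV:14225002-14225101, plus strand: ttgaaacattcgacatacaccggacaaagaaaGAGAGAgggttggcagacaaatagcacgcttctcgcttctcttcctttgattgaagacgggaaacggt
ZK899.t1, chrX:9467801-9467900, minus strand: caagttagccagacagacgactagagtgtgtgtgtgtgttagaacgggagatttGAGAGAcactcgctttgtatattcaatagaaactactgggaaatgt
Y71H2AM.t1, chrIII:2711611-2711710, plus strand: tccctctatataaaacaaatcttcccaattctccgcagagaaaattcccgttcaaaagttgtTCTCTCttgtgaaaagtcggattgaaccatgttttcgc
R11G10.t2, chrV:13507275-13507374, minus strand: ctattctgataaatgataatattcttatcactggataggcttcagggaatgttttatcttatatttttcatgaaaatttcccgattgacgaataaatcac
R11G10.t1, chrV:13509593-13509692, plus strand: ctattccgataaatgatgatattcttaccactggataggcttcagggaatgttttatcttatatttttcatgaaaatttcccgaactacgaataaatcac

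GAGAGA was searched because it had been common at summits of this series in general, and AAAAAT because it had been less frequent there than around genes. Neither word was therefore chosen independently of these data. Both strands were searched within 100 bases on either side of the gene's 5′ end. GAGAGA was present at 45 of 104 tRNA genes with a peak (43.3%, 34.2 to 52.9%) and at 83 of 508 without one (16.3%, 13.4 to 19.8%). It was present at 12.2% of all nuclear genes. The word lay upstream of the gene at 44 of the 104 genes with a peak and at 65 of the 508 without, touched the gene at 2 with a peak and 18 without, and lay beyond it at 0 with a peak and 1 without. With a median gene length of 72 bp, the search covered far less sequence beyond the gene than upstream. These counts therefore do not show on which side the word is more frequent. On X the word was at 27 of 53 genes with a peak and 36 of 223 without, and on the autosomes at 18 of 51 with a peak and 47 of 285 without. In the 37 groups of identical genes that held both kinds of copy, it was at 37 of 86 copies with a peak (43%, 33.1 to 53.6%) and 45 of 308 without (14.6%, 11.1 to 19%).

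Counted the other way, 45 of the 128 tRNA genes with GAGAGA had a peak (35.2%, 27.4 to 43.8%), against 59 of the 484 without the word (12.2%, 9.57 to 15.4%). In replicate 1 alone the shares were 16.4% with the word and 5.17% without, and in replicate 2 they were 21.1% with it and 7.02% without. Over all nuclear genes 5.13% with the word had a peak and 2.2% without. At the summits themselves, tRNA genes were like the rest: the word was within 100 bases of 37.6% of the summits at tRNA genes and of 37.8% of the others. AAAAAT went the other way, at 39 of 104 tRNA genes with a peak (37.5%) and 312 of 508 without (61.4%), and at 72.7% of all nuclear genes. It was within 100 bases of 39.6% of the summits at tRNA genes and of 45.9% of the others. TATATA was at 2 of the 104 genes with a peak and 18 of the 508 without, and at 8.05% of all nuclear genes. AAAAAT read on the other strand contains TTTT, the only overlap among the words searched.

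Base composition moved with the same genes. The 100 bases upstream had a median of 46.5% G and C at tRNA genes with a peak (quartiles 43.8 to 50%) and 40% at those without (34 to 46%). The genes were split into 3 parts by this value, at 38% and 45%. Above 45%, 30 of 55 tRNA genes with GAGAGA had a peak (54.5%, 41.5 to 67%) and 33 of 148 without it (22.3%, 16.3 to 29.7%). From 38 to 45% the counts were 12 of 45 with the word (26.7%) and 16 of 136 without (11.8%), and at or under 38% they were 3 of 28 with it (10.7%) and 10 of 200 without (5%). In those lower parts the intervals overlapped. All nuclear genes had a peak in 9.42% of cases above 45%, in 3.2% between the bounds and in 1.7% at or under 38%. The parts that composition and the word have in the shares were not tested.

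Most tRNA genes without a conservative peak still had a weaker summit. The ranked joint list had a summit within 500 bp of 452 tRNA genes (73.9%, 70.2 to 77.2%), and within 100 bp of 364 (59.5%), against 8.65% of all nuclear genes at 100 bp. On X the share within 500 bp was 78.6% (73.4 to 83%), and on the autosomes 69.9% (64.8 to 74.6%). Of the 508 genes without a conservative peak, 348 had a ranked summit (68.5%), against 23.6% of all nuclear genes without a conservative peak. A ranked summit in both single replicates was found at 260 of the 508 (51.2%), against 11.6% of those other genes. The strongest ranked summit stood at a median rank of 5068 of 36238 at the genes without a conservative peak, and at 788 at the genes with one. The other 160 of the 508 had no ranked summit in reach.

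Genes of the machinery that makes and processes tRNAs were looked at by a list of 48 proteins, of which 42 were found in the annotation. A conservative peak was within 500 bp of the 5′ end at 3 of the 42 (7.14%, 2.46 to 19%), an interval that includes the 3% of all protein-coding genes. They were mtcu-2, which acts in the modification of mitochondrial tRNAs, rpac-19, for a subunit shared by RNA polymerases I and III, and rpc-2, for a large subunit of RNA polymerase III. The signals of their nearest summits in the conservative list were 1433, 99.5 and 78.3 in that order. The summit at mtcu-2 was the strongest of all 1346 but lay 468 bp upstream of the gene. Among 19 other RNA genes transcribed by RNA polymerase III, of which 16 are annotated as rrn-4 copies for 5S ribosomal RNA, 2 had a peak (10.5%, 2.94 to 31.4%), against 2.55% of all nuclear genes. They were rpr-1, the RNA of RNase P, which trims the 5′ end of tRNAs, with a signal of 205 and a summit 42 bp inside the gene, and mrpr-1, the RNA of RNase MRP, with a signal of 113 and a summit 36 bp inside. A summit of the ranked joint list was within 500 bp of 16 of the 42 protein genes (38.1%, 25 to 53.2%) and 8 of the 19 RNA genes (42.1%, 23.1 to 63.7%), against 25.6% of all nuclear genes. The shares of the 19 RNA genes pool the rrn-4 copies, none of which had a conservative peak, with the other genes. Most rrn-4 copies lay close together on V, and whether reads can be placed on single copies was not tested.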

How the data were processed

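ChIP-seq peak lists of 2 samples, the 2 replicates of 1 group, were used. Coordinates are ce11, the assembly that WBcel235 names, and some lists were thresholded on IDR, per the deposited text files, which also list a further input of unstated role. Aligner and peak caller: not given in the sources used here. Each deposited signal is the caller's value per peak, with unstated scaling. It was used within a list and, as a ratio, between the replicates' ranked lists, whose scaling may differ. The deposited score, a whole number that falls as the IDR rises, was used only to look for ranked peaks at or above 830, the lowest score in the thresholded lists, that were missing from the conservative list: there were 31, and 0 of them lay in reach of a tRNA gene. Of the 8 lists 7 were used.

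Summits were placed with Python 3.11.15 and pandas 2.3.3 scripts against Ensembl's annotation of WBcel235, and amino acids came from RefSeq for 607 of the 612 genes. A gene's signal in a replicate is that of the ranked peak which overlaps its peak and has the nearest summit. Clusters joined 5′ ends within 2000 bp. No test was run: with 1 group the design has no comparison between samples, and shares are set beside those over all nuclear genes. The placement of summits was checked on planted summits. The genes named were those in reach of the 15 strongest summits, the 3 on either side of the 500 bp bound, the copies with a peak in the 5 largest groups of identical genes, and the 3 strongest on X and on the autosomes. Genes of any summit that reached at least 3 tRNA genes were to be named too, and there were none. Others were named after their values were seen. The members, lists and words were chosen with earlier results of these data known. Reads from identical copies cannot be told apart, so their values are uncertain. Nothing in the labels says that the replicates were grown apart, and their spread may be technical. Alternatives changed the window, the list, the clusters and the genes counted.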

Additional observations from a re-analysis of the deposited data

How the results depend on the processing

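Of 82 values recomputed under 14 alternatives, 59 stayed within the interval of the reported value (within 1.5 times for the count of summits) and 23 did not. In all 12 alternatives that gave both shares, X was above the autosomes. These alternatives reuse the same 2 samples and are not independent of each other. With conservative summits counted only within 100 bp, which was not among them, the shares were closer. They were 16.3% on X (12.4 to 21.1%) and 14.3% on the autosomes (10.9 to 18.4%). The single replicates' lists are shorter. Without one replicate the share of tRNA genes with a peak was 7.52 to 9.97%, on X 9.06 to 13.4%, on the autosomes 6.25 to 7.14%, of clusters 11.7 to 16.2%, and of lone genes 7.58 to 8.45%. The number of summits was 39 to 47, the upstream share 41.3 to 54.1% and the median distance 32 to 47 bp. With only the higher-signal part of the conservative list the shares were 8.01% of all tRNA genes, 10.9% on X, 5.65% on the autosomes, 12.6% of clusters and 7.58% of lone genes, from 40 summits. Fewer peaks entered by construction. Leaving out summits near protein-coding start sites gave 13.9% of all tRNA genes, 10.7% on the autosomes and 13.4% of lone genes. The restrictions to genes with either B box core and to unique surroundings were chosen after seeing the data. No paired analysis was possible because there was a single group. The unknown depth limits how a missing peak can be read.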

Other observations

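A few properties of the tRNA genes were not part of the comparisons in the report and are given as values. The 29 tRNA genes with an annotated intron, which must be spliced before the tRNA works, had a conservative peak in 5 cases (17.2%, 7.6 to 34.5%), and the 583 without one in 99 cases (17%, 14.2 to 20.2%). For tRNA genes within an intron of another gene, 20 of 122 on the strand opposite to the host had a peak (16.4%, 10.9 to 24%), and 18 of 160 on the host's strand (11.2%, 7.24 to 17.1%). The intervals overlapped in both comparisons. Of a group of 15 identical tRNA-Glu genes 7 had a peak, which are Y104H12A.t1 on IV and F12D9.t2, C28G1.t1, F11A1.t2, F11A1.t1, F31B12.t1 and F19H6.t1 on X. This group was named after its values were seen.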
